A study of Mus musculus with 3 samples.

Results

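Of 7921 Tcf1 peaks in the 2 lists used here, 348 were peaks of conventional CD4 T cells that had no counterpart in regulatory T cells (Treg cells) and lay between annotated genes. They were chosen by presence in 1 list, absence from the other and position relative to genes, on chromosomes 1 to 19 of the mm10 build. A member overlapped no peak of the Treg list and had no Treg midpoint within 1000 bp of its own. Its midpoint also lay outside every RefSeq gene span and over 1 kb from every gene end. Tcf1 was mapped by chromatin immunoprecipitation and sequencing with 1 library of each cell type, sorted from spleens of wild-type mice 8 to 10 weeks old that carried Foxp3-Cre-GFP. Conventional cells were TCRb+ CD4+ CD25- and negative for the reporter, and Treg cells were TCRb+ CD4+ CD25+ and positive for it. The tissue label of the conventional library reads effector while its title reads conventional, and it is called conventional here. Tcf1-deficient CD4 T cells, from CD4-Cre+ Tcf1 fl/fl mice, were not analysed here. The labels do not say whether animals were pooled. Peak lists carry no expression, so the sorted identities could not be checked against marker transcripts.

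Tcf1, the product of Tcf7, is an HMG-box protein that binds DNA directly and acts with its relative Lef1, with beta-catenin in Wnt signalling and with Tle corepressors. In T cells it is known for its part in thymic commitment, in the naive and memory state and in helper cell fate. Many T cell genes are controlled by enhancers outside the gene itself, and a peak between genes is a candidate contact of that kind whose target gene is not known from position alone. Each member was therefore described by its nearest protein-coding gene span within 100 kb, which is a label of place and not of control.

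Loci of microRNA genes were among the places of these peaks, and their mature sequences are given first because each is the product of the gene beside the peak. Within 20 kb of 10 members lay 17 microRNA hairpins. That is 2.87% of members (1.39% to 5.22%), against 4.14% of shared peaks between genes (2.16% to 7.12%), 1.49% of Treg-only peaks between genes (0.485% to 3.44%) and 4.48% of all conventional peaks (3.89% to 5.13%). The share of members lay between those of the other peaks between genes, and below that of all conventional peaks, with overlapping intervals. The rule keeps members over 1 kb from every annotated gene, microRNA genes included. The comparison with all conventional peaks is therefore partly set by the rule. The Mir17 cluster is known as a driver of lymphocyte growth and survival, Mir142 as a microRNA of blood cells, and Mir155 as one induced on lymphocyte activation. A member of 478 bp (chr14:115041469-115041946) lay 1964 bp before the first hairpin of the Mir17 cluster, Mir17, and 2720 bp from the last, Mir92-1. Its nearest Treg peak was 3091143 bp away. Beside Mir142 a member of 295 bp (chr11:87755474-87755768) lay 1243 bp from the hairpin, with a Treg midpoint 3908 bp away. Beside Mir155 a member of 292 bp (chr16:84703009-84703300) lay 10986 bp from the hairpin and 9869 bp from its host gene Mir155hg, with a Treg midpoint 32201 bp away. These 3 loci were singled out with their values in view, and 3 of the 10 members had a Treg midpoint within 20 kb. The mature sequences, from RefSeq on GRCm38.p6, run 5′ to 3′ with the seed (bases 2 to 8) in capitals. The miR-17 and miR-20a products share 1 seed, and the miR-19a and miR-19b products share another.
mmu-miR-17-5p: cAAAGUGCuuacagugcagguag
mmu-miR-20a-5p: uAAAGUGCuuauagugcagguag
mmu-miR-18a-5p: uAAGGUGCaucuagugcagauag
mmu-miR-19a-3p: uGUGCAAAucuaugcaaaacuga
mmu-miR-19b-3p: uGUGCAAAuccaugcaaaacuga
mmu-miR-92a-3p: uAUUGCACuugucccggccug
mmu-miR-142a-5p: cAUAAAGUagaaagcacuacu
mmu-miR-142a-3p: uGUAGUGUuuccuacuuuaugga
mmu-miR-155-5p: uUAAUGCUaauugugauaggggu

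Conventional-only peaks made up a similar share of the conventional list between genes and elsewhere. Of 642 conventional peaks between genes, 348 were conventional-only, or 54.2% (95% Clopper-Pearson interval 50.3% to 58.1%), a share that the rule itself fixes. The share was 58% inside gene bodies (807 of 1392 peaks, 55.3% to 60.6%) and 55.4% at gene ends (1344 of 2428, 53.4% to 57.3%), against 56% over all 4462 conventional peaks of chromosomes 1 to 19. Seen from the Treg list, 336 of 633 peaks between genes were Treg-only, or 53.1%. That share was higher than over the whole list, with 1330 Treg-only of 3290 peaks on these chromosomes. Inside gene bodies 457 Treg peaks were Treg-only and 570 shared, and at gene ends 537 and 1043. All intervals cover counting error only, and with 1 library of each cell type no test of the cell types was possible. The lists hold no read counts, so a locus absent from the Treg list may still have held reads there, and depth is unknown for both.

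Members were spread over all 19 chromosomes, with 27 on chromosomes 1 and 3 each, 26 on chromosome 11 and 8 on chromosome 19. As a share of the conventional peaks between genes they ranged from 39.5% on chromosome 6, with an upper bound of 55.6%, to 69.6% on chromosome 14, with a lower bound of 47.1%, so that even these intervals overlapped. Most stood apart from other members. At a limit of 20 kb between neighbouring member midpoints, 306 had no other member nearby, 21 pairs held the rest, and no longer run occurred. Conventional peaks of other classes are left out of that count. Counting all conventional peaks, another lay within 10 kb of 75 of 348 members (21.6%, 17.3% to 26.2%), against 30.3% of shared peaks between genes (25.1% to 36.0%).

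Peaks in this set were narrow, with a median width of 378.5 bp and quartiles of 316.75 and 455.75 bp. Width stands in for a score here, since the lists give none, and it is related to the rule, because a wide peak has more chance to overlap another. Conventional-only peaks had a median of 376 bp inside gene bodies and 400 bp at gene ends, and shared peaks between genes had 465 bp in the conventional list. Treg-only peaks between genes had a median of 308 bp, in a list whose minimum width was 240 bp against 279 bp in the conventional list. Members made up 74.4% (66.0% to 81.7%) of the narrowest of 5 groups of conventional peaks between genes of about equal number, of 279 to 322 bp, and 32.0% (24.1% to 40.9%) of the widest, of 550 to 1457 bp. Wider than 500 bp were 62 of 348 members (17.8%, 13.9% to 22.2%), against 125 of 290 shared peaks between genes (43.1%, 37.3% to 49.0%).

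**Figure D1:**
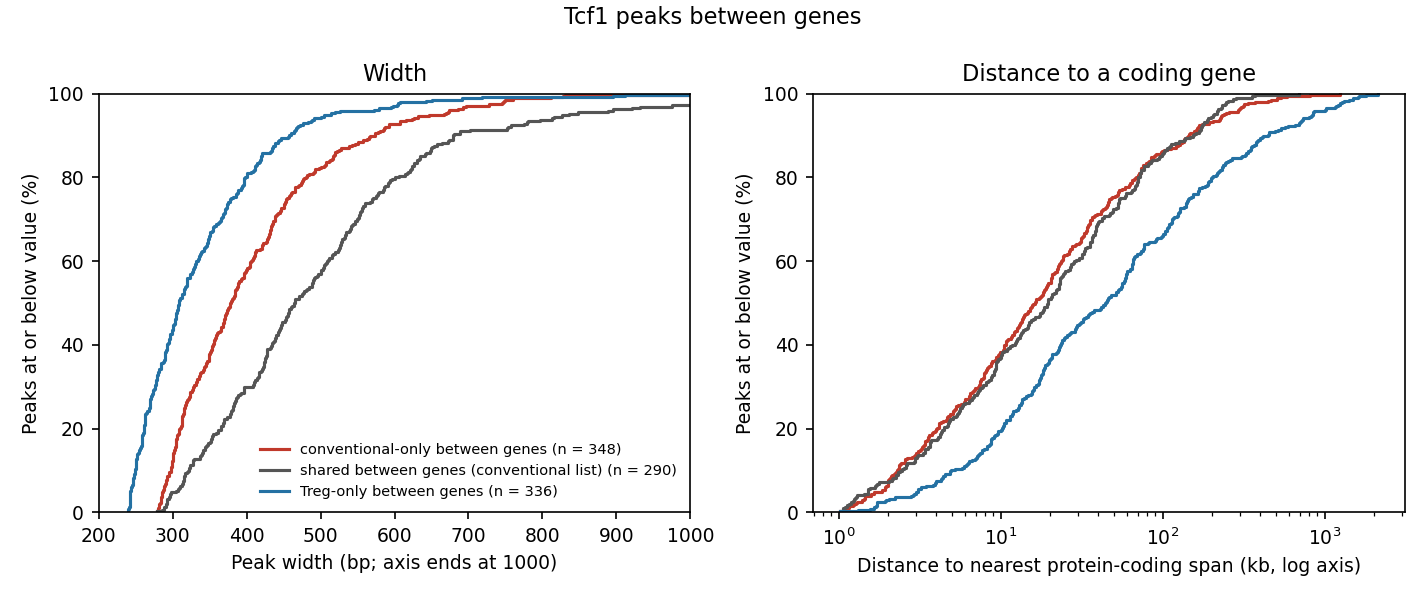
Cumulative share (%) of Tcf1 peaks between genes against peak width in bp (left) and against the distance to the nearest protein-coding gene span in kb on a log axis (right), for 348 conventional-only peaks (red), 290 shared peaks of the conventional list (grey) and 336 Treg-only peaks (blue). Conventional-only peaks lay between the other classes in width (medians 378.5, 465 and 308 bp) and close to the shared peaks in distance (medians 16210 and 19472.5 bp).

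The widest member stood well apart from the others in width. It spanned 1457 bp on chromosome 19 (chr19:53423593-53425049), ranked 14 in the whole conventional list, and lay 33620 bp upstream of Smndc1, which encodes a splicing factor, and 16891 bp from the long noncoding RNA gene Mirt1. A shared peak lay 3072 bp away. The second widest, of 831 bp (chr3:130936594-130937424), lay 173288 bp upstream of Lef1, the close relative of Tcf1, beyond the 100 kb limit. Another member of 413 bp (chr3:131019503-131019915) lay 90588 bp upstream of Lef1, with a shared peak 5264 bp away. Of the other 8 among the 10 widest, those nearest to Ndc80 (a kinetochore subunit) and Bub1b (a spindle checkpoint kinase) were 828 and 728 bp wide and lay 9851 and 1275 bp downstream of their genes. The member nearest to Slc38a2, a neutral amino acid transporter, was 750 bp wide and lay 10242 bp upstream. Members of 748 bp near Pebp4 and 356 bp near Egr3, an early growth response factor of T cell activation, formed 1 of the 21 pairs, with the second 2311 bp from the Egr3 span. The remaining 4 of the widest lay near Arl4c (811 bp wide), Exoc2 (760 bp), Fntb (747 bp) and Cnpy1 (745 bp).

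Distance to genes was close to that of shared peaks and shorter than that of Treg-only peaks. The median distance of a member to the nearest protein-coding span was 16210 bp (95% order-statistic interval 12891 to 20347 bp), against 19472.5 bp for shared peaks between genes and 44267.5 bp for Treg-only peaks between genes. To any annotated gene the medians were 7721.5, 7778 and 14267.5 bp in the same order. A coding span lay within 10 kb of 38.2% of members (133 of 348, 33.1% to 43.6%), of 37.2% of shared peaks (31.7% to 43.1%) and of 19.3% of Treg-only peaks (15.3% to 24.0%). No coding span lay within 100 kb of 13.8% of members (48 of 348, 10.3% to 17.9%), against 14.5% of shared peaks (10.6% to 19.1%) and 33.9% of Treg-only peaks (28.9% to 39.3%). The nearest gene of any kind was protein-coding for 172 members, a long noncoding RNA gene for 121 and a pseudogene for 47. The protein-coding share was 49.4% of members, 45.5% of shared peaks and 34.8% of Treg-only peaks. For long noncoding RNA genes the shares were 34.8%, 33.8% and 31.0% in the same order, and for pseudogenes 13.5%, 15.9% and 26.8%. Genes of snRNA, miRNA or snoRNA were nearest to the remaining members. Where the nearest coding gene lay within 100 kb and its strand was known, 129 of 240 members lay upstream of it (53.8%, 47.2% to 60.2%), a share whose interval includes an even split.

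Other conventional peaks lay near a larger share of members than of Treg-only peaks, which come from the other list, and near a smaller share than of shared peaks. Another conventional peak lay within 50 kb of 52.0% of members (181 of 348, 46.6% to 57.4%), against 60.0% of shared peaks between genes (54.1% to 65.7%), with overlapping intervals, and 20.5% of Treg-only peaks between genes (16.3% to 25.3%). A shared peak lay within 50 kb of 30.5% of members (25.7% to 35.6%). The same held for 41.4% of shared peaks between genes (35.7% to 47.3%), each set against the other shared peaks, and for 12.8% of Treg-only peaks (9.4% to 16.8%). The median distance of a member to the nearest other conventional peak was 46083.5 bp, and to the nearest Treg midpoint 80357.5 bp. A Treg midpoint lay within 50 kb of 136 members (39.1%, 33.9% to 44.4%), against 42.1% of conventional-only peaks inside gene bodies (38.7% to 45.6%) and 28.1% of those at gene ends (25.7% to 30.6%).

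**Figure D2:**
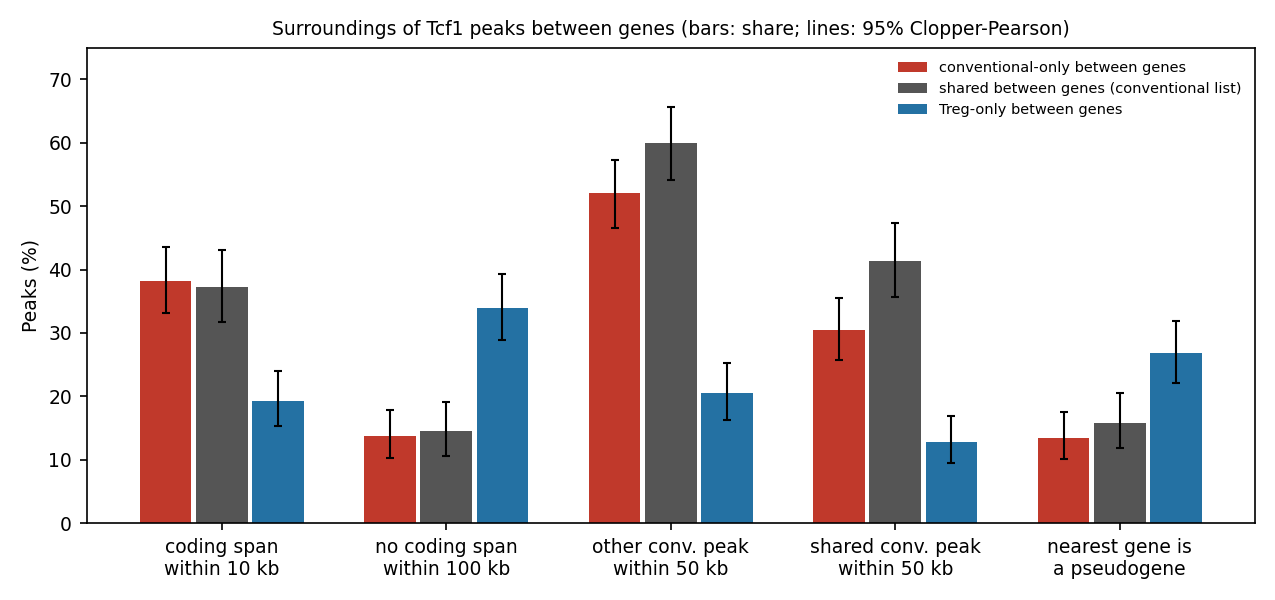
Share (%) of conventional-only (red, 348), shared (grey, 290) and Treg-only (blue, 336) peaks between genes that had the named feature, with 95% Clopper-Pearson intervals as lines. Conventional-only peaks had a coding span within 10 kb in 38.2% and no coding span within 100 kb in 13.8%, against 19.3% and 33.9% of Treg-only peaks.

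Coding genes within 100 kb were found for 300 of the 348 members, 276 genes in all. That is 1.34% of 20665 protein-coding genes on these chromosomes, against 1.08% with a shared peak between genes and 1.01% with a Treg-only one. For 145 of the 276 genes (52.5%) members were the sole conventional peaks, and 163 genes (59.1%) had no Treg peak. No matching counts are given for genes of the other peak classes, so neither count is set apart as a trait of members. The rule also bars a Treg peak beside a member, so the second count is partly set by it. Of the 300 assigned members, 125 (41.7%, 36.0% to 47.5%) lay at a gene that carried a Treg peak elsewhere. For conventional-only peaks inside gene bodies this share was 40.5% (37.0% to 44.0%), and for those at gene ends 10.4% (8.8% to 12.2%). The rule bars a Treg peak beside a conventional-only peak, here at the gene end itself, so the gene-end share is partly set by the rule. Peaks at 1 gene share that gene and are not independent of each other.

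More than 1 member was assigned to 21 genes, and 3 members each to Tgfbr2, Fasl and Arl4c. Tgfbr2 encodes the TGF-beta type II receptor, which restrains T cell activation. Its members were 284, 349 and 439 bp wide (chr9:116181581-116181864, chr9:116214298-116214646 and chr9:116243379-116243817) and lay 6359, 39109 and 68235 bp upstream. The only other conventional peak there, inside the gene, was also conventional-only, and no Treg peak was assigned to it. A further member of 587 bp (chr9:116368795-116369381) lay 193725 bp upstream of Tgfbr2, beyond the assignment limit, with a Treg midpoint 2809 bp from its own.

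Fasl, the death ligand of T cells, showed the other arrangement, with unshared peaks among shared ones. Members of 299, 364 and 519 bp lay 1450, 29210 and 45671 bp downstream (chr1:161779092-161779390, chr1:161751300-161751663 and chr1:161734761-161735279). Of 7 conventional peaks assigned to Fasl 5 were conventional-only and 2 shared, and both Treg peaks were shared. Further peaks within 100 kb were not assigned to Fasl, among them shared peaks and a Treg-only peak upstream. Arl4c, a small GTPase of the Arf family, had members of 811, 360 and 394 bp at 41973, 53567 and 75865 bp downstream. The first (chr1:88655847-88656657) stood 1104 bp from a shared peak and had its midpoint 1132 bp from a Treg midpoint, just inside the limit of the rule.

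Cxcr4, the receptor for the chemokine CXCL12, had a pair of members of 410 and 421 bp at 10406 and 13714 bp upstream (chr1:128602501-128602910 and chr1:128605803-128606223). They stood between shared peaks on both sides, and all 3 Treg peaks assigned to Cxcr4 were shared. Mcl1, an antiapoptotic Bcl2 family member that lymphocytes need to survive, had a pair of 493 and 476 bp at 3060 and 6007 bp downstream (chr3:95665993-95666485 and chr3:95668949-95669424). It had no other conventional peak and no Treg peak, and the nearest Treg midpoints were 216612 and 213665 bp away. Cd44, an adhesion receptor that marks activated and memory T cells and was singled out with its values in view, had 1 member on each side. They were 539 bp wide at 7876 bp upstream and 322 bp wide at 6868 bp downstream, with no other conventional peak and no Treg peak assigned to the gene. Gzmb, the protease granzyme B, had a pair of 336 and 329 bp at 22312 and 33952 bp upstream, and again no other conventional peak and no Treg peak.

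**Figure D3:**
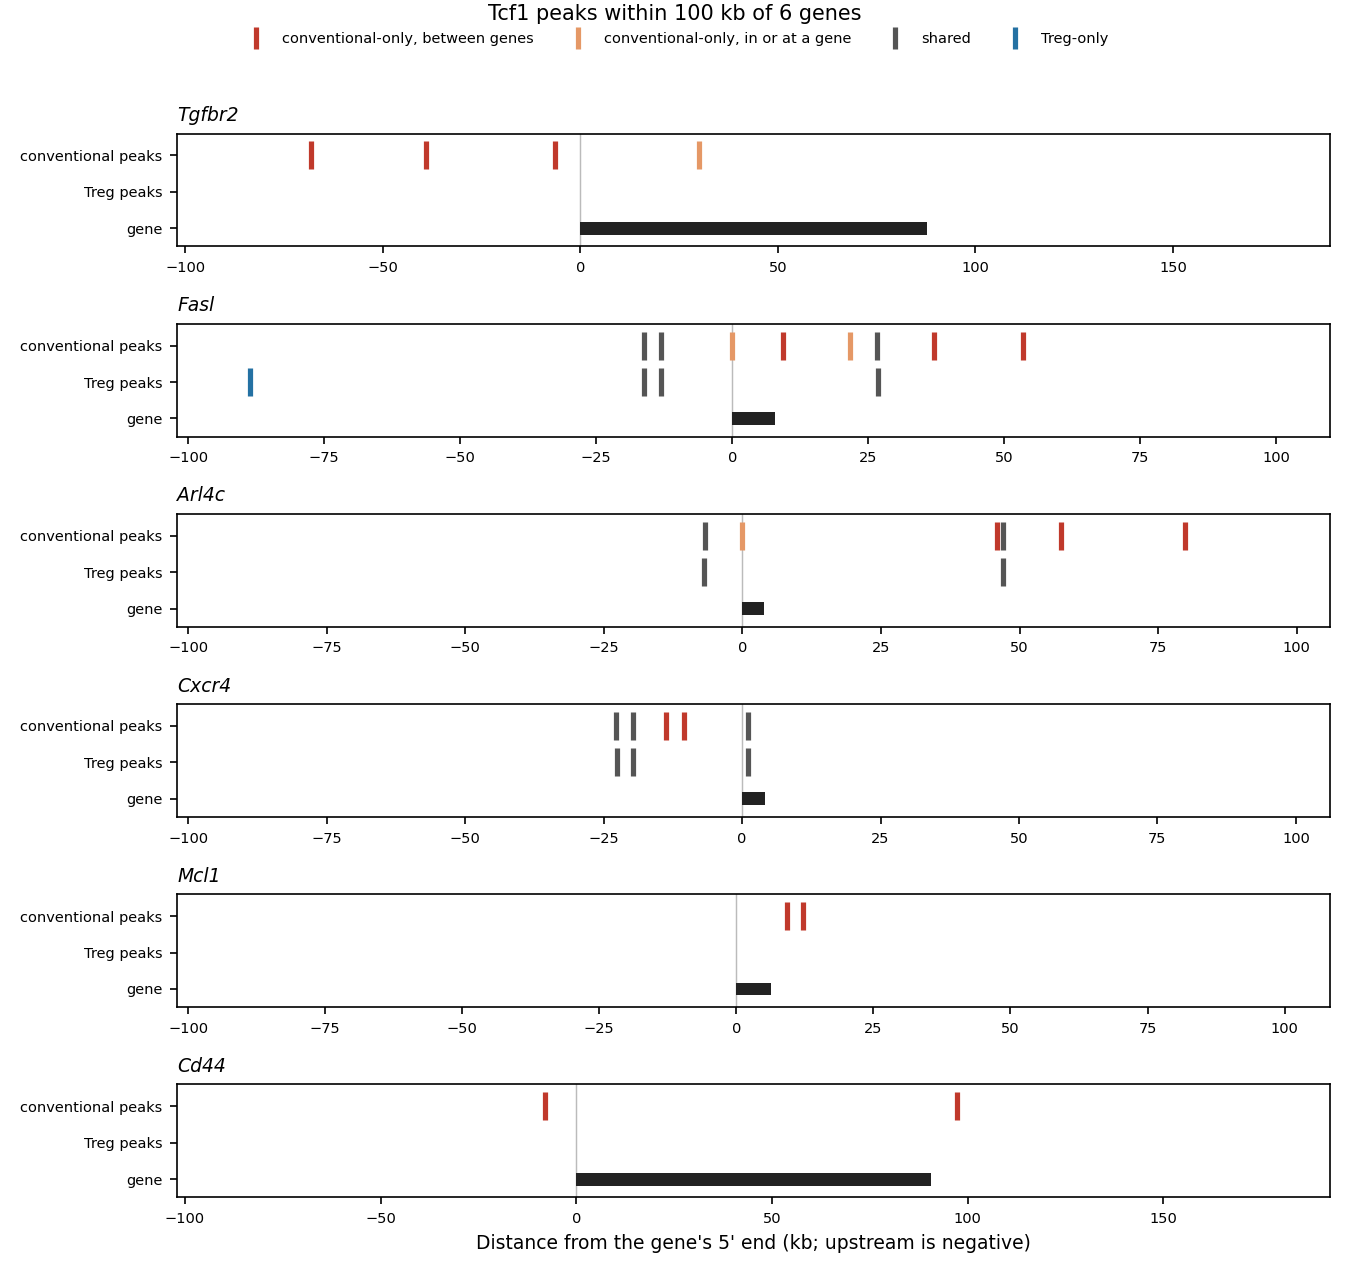
Tcf1 peaks within 100 kb of the Tgfbr2, Fasl, Arl4c, Cxcr4, Mcl1 and Cd44 spans, placed by distance from the 5' end of each gene in kb with upstream negative. Each tick is 1 peak, not drawn to its width, with conventional peaks in the top row, Treg peaks in the middle row and the gene as a black bar. Members (red) stood among shared peaks (grey) at Fasl, Arl4c and Cxcr4 and without any Treg peak in view at Tgfbr2, Mcl1 and Cd44. A Treg-only peak (blue) at -88.4 kb from Fasl was not assigned to that gene.

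Genes from 16 lists of T cell and other functions were then looked up, of which 318 of 319 distinct genes matched the annotation by symbol. A member was assigned to 24 of the 318, or 7.55% (4.9% to 11.02%), against 1.34% of all coding genes. Shared peaks between genes were assigned to 32 of the 318 (10.1%, 7.0% to 13.9%) and Treg-only peaks between genes to 10 (3.14%, 1.5% to 5.7%), against backgrounds of 1.08% and 1.01%. All 24 genes were in 10 lists grouped as T cell function, which held 223 genes and included the Wnt and cell survival lists. None of 96 genes in the lists for cell cycle, B cells, myeloid cells, housekeeping, liver and neurons had a member. Taken as 3 divided by the 96 genes, and not as the exact interval used elsewhere, the share could be up to 3.13%. That bound is above the 1.34% of all coding genes. This grouping coincides with which lists had a member. The 0 holds for the listed genes alone, since members lay nearest to Ndc80 and Bub1b, mitotic genes outside the cell cycle list. The lists were chosen with earlier results of these data known, so the split is no test of T cell function. The lists were not matched on the length of DNA between genes or on expression, and the part of either in these shares was not tested.

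Most lists with members had shared peaks between genes at equal or higher counts, the Treg signature and cell survival lists excepted. Naive and memory T cell genes had a member at 6 of 24 and a shared peak between genes at 7. Satb1, a chromatin organiser of T cells, had one of 546 bp at 46120 bp upstream (chr17:51879138-51879683). S1pr1, the receptor for exit from lymphoid organs, had one of 480 bp at 27530 bp from its span, and Socs3, the feedback inhibitor of cytokine signalling, one of 516 bp at 13519 bp downstream. Ccr7, the lymph node homing receptor, had one of 319 bp at 7597 bp, and Btla, an inhibitory receptor, one of 301 bp at 8663 bp downstream. Lef1 was the other. No Treg peak was assigned to S1pr1 or Btla, while Ccr7 and Socs3 each had 2 shared Treg peaks and Satb1 had 1. Chemokine receptor and trafficking genes had a member at 3 of 20, namely Ccr7, S1pr1 and Cxcr4, and a shared peak between genes at 3.

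Signalling and activation lists had members at fewer genes than shared peaks between genes, with 3 against 6 for T cell receptor signalling, 3 against 7 for activation factors and 3 against 6 for cytokine receptors. T cell receptor signalling had a member at 3 of 29, namely Zap70, the kinase of the activated receptor (446 bp wide, 1238 bp upstream), Prkcq, which encodes PKC-theta (504 bp, 12079 bp upstream), and Malt1, a protease of the NF-kappaB pathway (305 bp, at 15151 bp). Activation transcription factors had a member at 3 of 26, namely Egr3, Nr4a1 (281 bp, 3320 bp upstream) and Junb, an AP-1 subunit (304 bp, 1155 bp upstream). The Nr4a1 distance runs to the start of its RefSeq span (chr15:101253902), and the Nr4a1 promoter printed below lies inside that span. Cytokine receptors and Jak-Stat regulators had one at 3 of 26, namely Tgfbr2, Socs3 and Il21r, the interleukin 21 receptor (300 bp, 1288 bp downstream). Each of Zap70, Prkcq, Malt1, Nr4a1, Junb and Il21r also carried shared peaks, and the member at Zap70 was 1232 bp from a Treg midpoint.

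Helper lineage regulators and cytokines had a member at 2 of 30, namely Runx1, a factor of T cell development (384 bp, 2087 bp upstream), and Il21, a follicular helper cytokine (313 bp, 18571 bp downstream, 1173 bp from a Treg midpoint). The Treg signature list had one at 4 of 27: Prdm1, which encodes Blimp-1 (331 bp, 7435 bp downstream), the inhibitory receptor Lag3 (299 bp, at 5932 bp), Rgs1, a regulator of G protein signalling (422 bp, at 81703 bp), and Gzmb. No Treg peak was assigned to Lag3, Rgs1 or Gzmb, and Prdm1 had 2 shared Treg peaks. In the Tcf1, Lef1 and Wnt list 2 of 31 genes had a member, Lef1 and the corepressor Tle4, whose member of 324 bp lay 97367 bp upstream with the nearest Treg midpoint 1899417 bp away. The cell survival list (2 of 18) was represented by Mcl1 and Fasl, and the CD8 and cytotoxic list (2 of 16) by Fasl and Gzmb. Shared peaks between genes were assigned to 3 genes of the helper list, 2 of the Treg signature, 2 of the Wnt list, 1 of the survival list and 2 of the CD8 list.

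**Figure D4:**
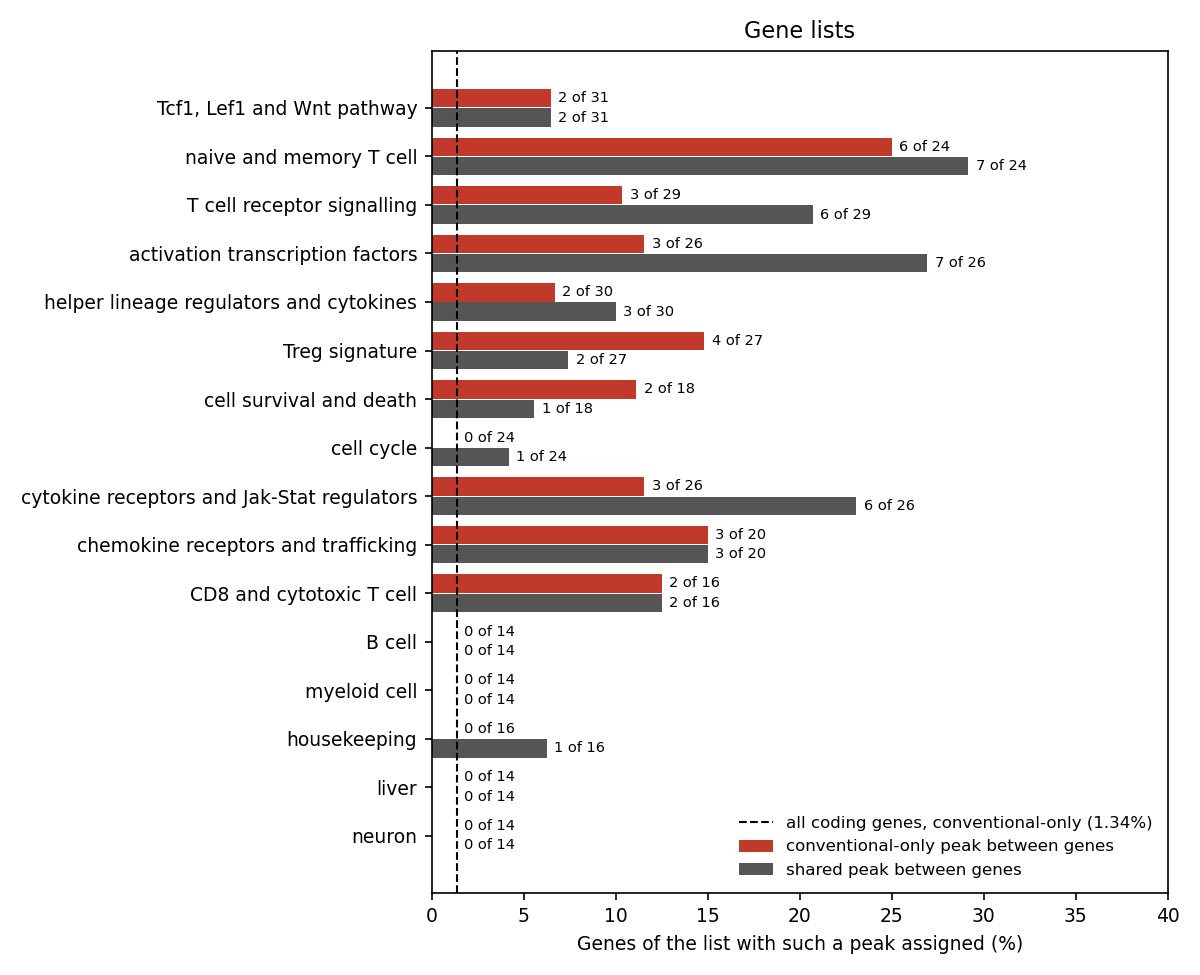
Share (%) of the matched genes of each of 16 lists that had a conventional-only (red) or a shared (grey) peak between genes assigned to them, with the counts beside the bars. The dashed line marks the 1.34% of all protein-coding genes with a conventional-only one, and the naive and memory T cell list had 6 and 7 of 24.

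No coding gene lay within 100 kb of 48 members. Foxo1, a forkhead factor of naive T cells, was the nearest coding gene to 3 of these, of 450, 501 and 399 bp at 205190, 222502 and 297836 bp downstream. Gadd45g, a stress-response gene, was nearest to 3, of 473, 384 and 333 bp at 156060, 159686 and 295785 bp downstream, and each of the first pair had a Treg midpoint within 22102 bp. Sall3 was nearest to 4, from 224218 to 581578 bp away. A member of 491 bp (chr16:24151308-24151798) lay 162687 bp upstream of Bcl6, the regulator of follicular helper cells, with no other conventional peak within 162742 bp. The 3 members farthest from any annotated gene were nearest to Trps1 (389 bp wide, 289975 bp away), to Akr1e1 with a noncoding gene at 197432 bp, and to Kcnh8 with one at 124415 bp.

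Promoters of genes that carried a member could be read for sequence, whereas a member's own sequence was not analysed here. The distance rule and the widths keep every member clear of these windows. Windows were the 250 bases before each annotated start in RefSeq on GRCm38.p6, and the TCF/LEF letters ATCAAAG were searched on both strands. They occurred in 10 of 274 promoters of genes with a member (3.65%, 1.8% to 6.6%), against 3.23% of all 31396 promoters (3.0% to 3.4%) and 5.54% of 1120 promoters that lay wholly within a conventional peak (4.3% to 7.0%). Of 25 promoters of these genes that lay wholly within a conventional peak, 2 held the letters, at Akap13 and at Ywhaq, which encodes a 14-3-3 protein. They are printed with those of the 3 list genes among the 25, Satb1, Nr4a1 and Tle4, in which the letters were not found. Capitals mark ATCAAAG or its reverse complement. The sequences run 5′ to 3′ on the gene's strand, at chr7:75455284-75455533 (plus) for Akap13, chr12:21417437-21417686 (minus) for Ywhaq, chr17:51832648-51832897 (minus) for Satb1, chr15:101266596-101266845 (plus) for Nr4a1 and chr19:14598184-14598433 (minus) for Tle4.
Akap13: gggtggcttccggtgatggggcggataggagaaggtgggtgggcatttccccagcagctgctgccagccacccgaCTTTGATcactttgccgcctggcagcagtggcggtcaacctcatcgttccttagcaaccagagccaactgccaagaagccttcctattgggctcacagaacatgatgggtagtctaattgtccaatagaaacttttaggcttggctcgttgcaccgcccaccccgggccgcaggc
Ywhaq: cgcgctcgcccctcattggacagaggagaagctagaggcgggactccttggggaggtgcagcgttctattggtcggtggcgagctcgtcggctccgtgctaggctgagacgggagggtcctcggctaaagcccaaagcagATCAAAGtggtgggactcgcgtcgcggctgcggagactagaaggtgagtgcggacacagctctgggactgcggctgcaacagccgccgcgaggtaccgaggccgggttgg
Satb1: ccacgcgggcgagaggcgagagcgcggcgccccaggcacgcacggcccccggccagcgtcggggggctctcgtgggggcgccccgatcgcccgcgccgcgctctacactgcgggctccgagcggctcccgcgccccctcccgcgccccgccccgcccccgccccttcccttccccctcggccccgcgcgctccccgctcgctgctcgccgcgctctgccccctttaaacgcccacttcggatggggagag
Nr4a1: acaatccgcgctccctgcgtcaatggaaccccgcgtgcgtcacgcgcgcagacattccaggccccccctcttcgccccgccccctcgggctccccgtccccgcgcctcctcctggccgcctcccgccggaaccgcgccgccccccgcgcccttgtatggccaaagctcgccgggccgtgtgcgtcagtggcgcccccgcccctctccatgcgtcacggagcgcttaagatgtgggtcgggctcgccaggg
Tle4: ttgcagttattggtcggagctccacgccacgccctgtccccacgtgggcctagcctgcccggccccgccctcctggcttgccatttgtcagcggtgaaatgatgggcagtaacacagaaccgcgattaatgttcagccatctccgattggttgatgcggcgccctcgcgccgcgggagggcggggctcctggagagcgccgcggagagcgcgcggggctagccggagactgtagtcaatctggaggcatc

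The share of G and C in these 5 windows was 58.4% for Akap13, 65.2% for both Ywhaq and Tle4, 74.4% for Nr4a1 and 80.8% for Satb1. The promoter peak was conventional-only at Tle4 and shared with the Treg list at the other 4, though the Satb1 window did not lie wholly within a Treg peak.

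Close to the limits of the rule, the widths of members and of the peaks just beyond them overlapped. The members nearest to a Treg midpoint lay 1025, 1116 and 1132 bp from it, near Fam240a, Zfp36 and Arl4c, and were 349, 426 and 811 bp wide. The 3 peaks just beyond the limit lay at 990, 818 and 750 bp, near Zswim4, Fam3c and Runx3, and were 675, 461 and 292 bp wide. Members closest to a gene end lay 1016, 1063 and 1085 bp from Tfip11, Sesn3 and Urad and were 317, 481 and 366 bp wide. Conventional-only peaks just too close to an end, at 954, 938 and 919 bp from Lsm2, Ap3m2 and Gtf2i, were 432, 711 and 453 bp wide.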

How the data were processed

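Tcf1 was profiled in 3 libraries, of which 2 had a peak list here. Both lists were deposited by the authors as chromosome, start and end, without a read count, height or p-value. Per the submitters' processing notes, the tools were MACS2 2.1.1, Bowtie2 2.3.4.1 and FastQC and the build mm10, with no roles stated. The sources used here do not state how the lists were filtered or against which control peaks were called. Unequal depth could change how many peaks a list holds and how wide they are. Positions are printed 1-based.

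Python 3.11.15, numpy 2.4.6, pandas 2.3.3, scipy 1.17.1 and matplotlib 3.10.9 were used. Overlap meant at least 1 bp. Genes were RefSeq spans of GRCm38.p6, whose primary chromosomes are those of mm10, with strand from its promoter table where given. No p-value was computed. The rule was tested on simulated peaks. Motif searches planned in the peaks themselves could not be run without the genome, and ATCAAAG was the 1 motif searched in promoters. Promoters on chromosome 18 were left out of the 25 read for sequence.

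The members and lists were chosen with earlier results of these data known. Genes were named by a fixed rule: the 10 widest members, up to 20 widest members at list genes, the genes or runs with most members, the 3 farthest from genes, and the peaks beside each threshold. Outside it, chosen after their values were seen, were Cd44, Dad1, Bcl6, Foxo1, Gadd45g, Sall3, the microRNA genes, Akap13, Ywhaq, the narrower members at list genes, and the genes of the closing observations.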

Additional observations from a re-analysis of the deposited data

How the results depend on the processing

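Each of 10 other settings changed 1 choice, and 38 of 60 values stayed within 1.5 times the count or within the 95% interval of the share or median. Neither other limits on the distance to a Treg midpoint nor adding chromosomes X and Y moved any value further. With no margin at gene ends there were 771 peaks, 1085 bp from a coding span and 406 bp from any gene in the median, at 681 genes and 38 list genes. A margin of 5 kb gave 218 peaks, 25037.5 and 13828.5 bp, 162 genes and 14 list genes. With coding spans alone there were 525 peaks, 17245 bp from the nearest of those spans. Among conventional peaks split at the median width, the wider ones held 122 members with a median width of 502.5 bp, a shared peak within 50 kb of 36.1%, 101 genes and 8 list genes. At the length of the Treg list there were 223 members, 433 bp, 176 genes and 13 list genes. Counts and widths follow from which peaks each setting keeps, and the cause of the change in the share with a shared peak nearby was not tested. Taking both flanking coding genes gave 472 genes. Sequence alternatives were not run. No paired analysis was possible because each group had 1 library and no test was made.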

Other observations

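At 21 of the 276 genes with a member (7.61%, 4.77% to 11.4%), the Treg list had a peak of its own and the 2 lists shared none. The same held for 52 of 669 genes with a conventional-only peak inside the gene body (7.77%, 5.86% to 10.1%) and 34 of 1302 with one at a gene end (2.61%, 1.82% to 3.63%). The gene-end share is again partly set by the rule, which bars a Treg peak beside the conventional-only one. At Foxo3, a forkhead factor of quiescence, a member of 517 bp (chr10:42277887-42278403) lay 1450 bp upstream and a Treg-only peak of 375 bp at the gene end (chr10:42276611-42276985), 1347 bp apart by midpoint. At Rgs2, a regulator of G protein signalling, a member of 339 bp lay 2565 bp from the span and a Treg-only peak of 275 bp stood 2458 bp from it. Tnfrsf14, the receptor that binds Btla, had a member of 388 bp and a Treg-only peak of 272 bp between genes, 5613 bp apart. Peli1, a ubiquitin ligase that limits T cell activation, had its members of 351 and 314 bp at 24361 and 41665 bp downstream, and a Treg-only peak of 304 bp at the other end of the gene. Distances between such pairs ran up to 166809 bp, at Zfand3. The lists give no read counts at these places.

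At the T cell receptor alpha locus a member of 674 bp (chr14:54230987-54231660) lay between the constant gene Trac and Dad1, 4162 bp downstream of Dad1, with a shared peak 2123 bp away. Dad1 had 5 conventional peaks, 3 of them shared, and 5 Treg peaks.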
